A study of Mus musculus with 8 samples.

Results

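A set of 9 mouse genes that mark the formative and primed states of pluripotency was followed across 8 one-colour expression arrays of pluripotent cells. The genes, Fgf5, Otx2, Pou3f1, Zic2, Zic5, Lef1, Sox3, Sox11 and Fst, were found on the array by the RefSeq transcript assigned to each probe. All 9 had a probe, 11 probes in all, and they stand among 14390 named genes and 22685 features that were tested. These probes were each well above background on all 8 arrays, so no member was lost to the filter on dim probes.

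One array held RNA of an embryonic stem cell (ESC) line named B6J-23. The other 7 held induced pluripotent stem cells (iPSCs), 4 labelled OSKH and 3 labelled OSK. All came from C57BL/6J mice and were labelled undifferentiated. OSK is read here to mean the reprogramming factors Oct4, Sox2 and Klf4, and H the oocyte linker histone H1foo, since the labels do not expand the letters. The somatic cell of origin, the vector, the culture medium and whether the arrays of a group are separate lines or clones are not given in the sources used here, and a p-value therefore reflects the spread of these arrays alone, part of which may be technical.

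Mouse pluripotent cells pass from a naive state, like that of the preimplantation epiblast, through a formative state in which they become able to answer differentiation signals, to a primed state like the epiblast around gastrulation. FGF and ERK signalling and the loss of LIF and Wnt support drive the transition, and the homeodomain factor Otx2 redirects Oct4 to new enhancers during it. Fgf5 is the classic marker of the postimplantation epiblast and is low in naive cells. Cultured ESCs are a mixture in which single cells move in and out of these states, and in bulk RNA a smaller number of cells of one state cannot be told apart from less RNA of a gene in each cell.

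Levels are given as log2 of the signal of a probe less the log2 of the 75th percentile on that array. A level of 0 is the signal at that percentile and a difference of 1 is a doubling of the signal. Differences were tested with limma over all 22685 features with Benjamini-Hochberg adjustment and a threshold of 0.05. The share of probes well above background was 51.4% to 59.0%, and the number of arrays limits the precision. The 8 arrays shared 1 slide. Its row 1 held ESC and OSKH 1 to 3, and its row 2 held OSKH 4 and OSK 1 to 3. Arrays with the same number in both iPSC groups shared a slide column, and ESC and OSKH 4 shared column 1. All 8 pluripotency markers (Pou5f1, Sox2, Nanog, Zfp42, Esrrb, Lin28a, Utf1 and Dppa5a) were well above background on all 8 arrays. A summed level is the log2 of the sum of the unlogged levels of the markers, so the strongest genes weigh most. For these markers it ran from 9.25 to 9.73 in OSKH, from 9.36 to 9.52 in OSK and was 9.64 in ESC. Dppa5a was the strongest (8.27 to 8.80), while Esrrb ran from 4.64 to 6.86 and Nanog from 1.33 to 2.28 over the arrays. OSKH 4 stood apart in mesendoderm markers (T, Eomes, Mixl1, Gsc, Foxa2 and Sox17), with a summed level of 5.44 and 6 of 6 measured, against -1.0 to 0.85 on the other 6 iPSC arrays and 2.22 on ESC.

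The promoters of the genes that the results turn on are shown first, as the 250 bases before the transcription start, from RefSeq on GRCm38.p6. A promoter was matched for 5 of the 9 genes (Fgf5, Otx2, Zic5, Lef1 and Sox11). Fgf5 and Otx2 are shown because their levels went together across the arrays, and Sox11 and Zic5 because both were lowest on OSKH 1. Capitals mark a match to a TATA box core (TATAAA). The windows are Fgf5 at chr5:98253934-98254183 on the plus strand, the most upstream of 4 Otx2 starts at chr14:48667645-48667894 on the minus strand, Sox11 at chr12:27342719-27342968 on the minus strand and Zic5 at chr14:122465659-122465908 on the minus strand.
Fgf5: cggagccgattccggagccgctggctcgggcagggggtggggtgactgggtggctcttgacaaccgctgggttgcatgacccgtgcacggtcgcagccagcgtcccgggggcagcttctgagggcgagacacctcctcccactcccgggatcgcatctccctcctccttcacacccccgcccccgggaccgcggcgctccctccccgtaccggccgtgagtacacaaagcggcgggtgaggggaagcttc
Otx2: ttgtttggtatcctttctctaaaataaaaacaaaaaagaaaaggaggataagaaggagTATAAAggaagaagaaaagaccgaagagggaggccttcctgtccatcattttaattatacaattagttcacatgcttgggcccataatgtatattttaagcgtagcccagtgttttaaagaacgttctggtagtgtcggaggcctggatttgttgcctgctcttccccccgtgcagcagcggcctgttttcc
Sox11: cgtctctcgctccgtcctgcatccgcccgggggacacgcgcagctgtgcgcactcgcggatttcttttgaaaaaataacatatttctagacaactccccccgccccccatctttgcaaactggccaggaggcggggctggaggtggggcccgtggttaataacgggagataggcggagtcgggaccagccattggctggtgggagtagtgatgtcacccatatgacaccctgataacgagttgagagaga
Zic5: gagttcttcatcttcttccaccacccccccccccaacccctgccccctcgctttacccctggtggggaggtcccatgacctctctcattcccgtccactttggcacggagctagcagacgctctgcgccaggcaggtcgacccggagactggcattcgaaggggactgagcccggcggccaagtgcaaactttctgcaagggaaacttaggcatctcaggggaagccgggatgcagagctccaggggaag

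The Fgf5 window was rich in G and C (70.8%, with 24 CpG pairs), as against 42.0% and 6 CpG in the Otx2 window, 58.0% and 17 in Sox11 and 62.4% and 11 in Zic5. Over all 32851 promoter windows of the same length the medians were 52.4% and 6. A set of 5 motifs was searched on both strands, none of which contains another: TAATCC (OTX homeodomain core), CTTTGA (TCF/LEF core), CATTGT (SOX core), ATGCAAAT (POU octamer) and TATAAA. They occur in 6.25%, 13.8%, 10.7%, 1.60% and 12.4% of all windows. Of the 4 windows shown, that of Otx2 held 1 match, TATAAA at 192 bases before the start, and the other 3 held none. The window of Otx2 start 3 held the OTX core on the reverse strand, 211 bases before that start, within these 30 bases at chr14:48665303-48665332 (minus strand), in which capitals mark the match.
Otx2, start 3: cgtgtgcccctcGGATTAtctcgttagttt

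Start 4 of Lef1 held 2 TCF/LEF cores, 1 SOX core and 1 TATA box core in its window, and the other 3 Lef1 starts held none. These matches are letters in a window and no more.

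The secreted members, Fgf5 and follistatin (Fst), were higher in OSKH than in OSK on average, and Fst was the 1 member of 9 whose groups did not overlap. Every OSKH array lay above every OSK array in 3.14% of all features and below every OSK array in 4.19%, the latter in 0 members. Fst, which binds and neutralises activin, was at 1.91, 1.41, 2.69 and 3.07 on OSKH 1 to 4, at 0.11, 0.32 and 0.86 on OSK 1 to 3, and at 1.85 on ESC. The lowest OSKH array, OSKH 2, thus lay above the highest OSK array, OSK 3, and ESC lay inside the OSKH range. The group means were 2.27 ± 0.75 (SD, n = 4) and 0.43 ± 0.39 (SD, n = 3), a 3.57-fold difference (log2 1.84, SE 0.42, 95% interval 0.85 to 2.82). With limma the adjusted p was 0.733, so the difference did not pass over all features.

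Fgf5, a secreted FGF of the epiblast, was at 0.99, 1.94, 2.73 and 3.45 on OSKH 1 to 4, at -0.60, 0.15 and 1.99 on OSK 1 to 3, and at 2.38 on ESC. The groups overlapped, because OSK 3 lay above OSKH 1 and OSKH 2. The means were 2.28 ± 1.06 (SD, n = 4) and 0.51 ± 1.33 (SD, n = 3), a 3.40-fold difference (log2 1.76, SE 0.77, limma adjusted p = 0.768). Its range of 4.04 over the 7 iPSC arrays was the widest of the 9 members.

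Otx2, the homeodomain factor of the formative transition, was the transcription factor of the set with the largest mean difference between the iPSC groups. It was at 3.85, 4.12, 4.63 and 4.88 on OSKH 1 to 4, at 2.58, 2.08 and 3.98 on OSK 1 to 3, and at 4.41 on ESC. OSK 1 and OSK 2 lay below every OSKH array, while OSK 3 lay above OSKH 1. The means of 4.37 ± 0.47 (SD, n = 4) and 2.88 ± 0.99 (SD, n = 3) differed 2.81-fold (log2 1.49, SE 0.48, 95% interval 0.36 to 2.62, limma adjusted p = 0.733).

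**Figure D1:**
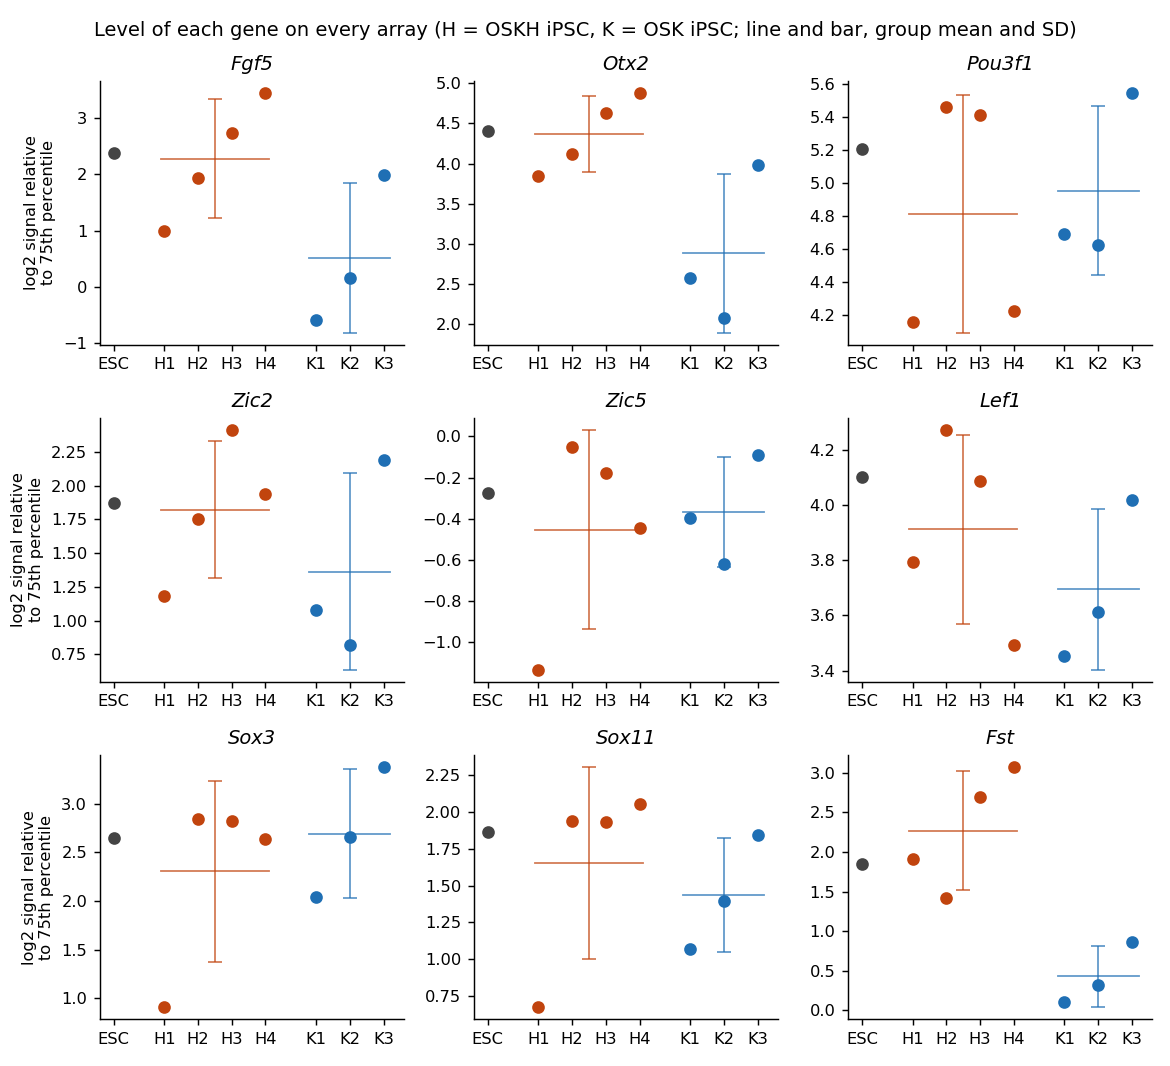
Level of each of the 9 genes on every array, as log2 signal over the 75th percentile of that array, with 1 point per array and the mean and SD of the 4 OSKH and 3 OSK arrays; each panel has its own scale. Fst separates OSKH (1.41 to 3.07) from OSK (0.11 to 0.86), Fgf5 and Otx2 overlap through OSK 3 at 1.99 and 3.98, and Sox3 and Sox11 are lowest on OSKH 1 at 0.91 and 0.68.

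The excess of these 3 genes in OSKH was seen within each numbered pair. OSKH exceeded OSK of the same number by 1.80, 1.09 and 1.82 for Fst, by 1.59, 1.79 and 0.74 for Fgf5, and by 1.27, 2.05 and 0.65 for Otx2. Zic2 and Lef1 were also higher in all 3 pairs, which makes 5 of 9 members, as against 16.4% of all features. Each pair sets slide row 1 against row 2, so slide row and group cannot be told apart in the pairs. OSKH 4, which has no numbered partner, was the highest of the 8 arrays in Fgf5, Otx2, Fst and Sox11, and the share of all features highest there was not counted. The mesendoderm markers of OSKH 4 stood apart as given above. Its trophectoderm markers (Cdx2, Krt7, Krt8, Gata3 and Elf5) summed to 3.47 against 0.01 to 0.73 on the other iPSC arrays and 1.03 on ESC. Most of that sum was Krt8, at 3.13 on OSKH 4. Cdx2 (0.23) and Krt7 (-0.06) were also highest there. Gata3 was not, at -2.46 against -2.33 on OSKH 1, and Elf5 was near background on all arrays. Without OSKH 4 the differences were 1.57 for Fst, 1.37 for Fgf5 and 1.32 for Otx2. Without OSK 2 the Otx2 difference was 1.09, and without OSK 1 the Fgf5 difference was 1.21.

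Within slide row 2, which holds OSKH 4 and the 3 OSK arrays, OSKH 4 exceeded the OSK mean by 2.93 in Fgf5, 2.64 in Fst and 2.00 in Otx2. This is also the difference that limma gives with slide row as a block, and under that fit 0 of 9 members passed, against 0.207% of all features, with a smallest adjusted p of 0.163 for Fst. Within row 1, which has no OSK array, the mean of OSKH 1 to 3 differed from ESC by 0.15 in Fst, -0.49 in Fgf5 and -0.21 in Otx2.

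The other members had smaller mean differences between the iPSC groups, in both directions, and whether they differ from Fgf5, Otx2 and Fst in this was not tested. Pou3f1, which encodes the POU factor Oct6 that comes up early in epiblast-like cells, was at 4.16, 5.46, 5.41 and 4.23 on OSKH 1 to 4, at 4.69, 4.62 and 5.54 on OSK 1 to 3, and at 5.20 on ESC. OSKH 1 and OSKH 4 were the lowest 2 of the 8 arrays and OSK 3 the highest, and the groups overlapped. The difference of -0.14 (SE 0.42, limma adjusted p = 0.975) had a 95% interval from -1.15 to 0.87, and it was 0.077 without OSKH 1.

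Sox3, an X-linked SoxB1 factor of the epiblast and early neural plate, was at 0.91, 2.85, 2.82 and 2.63 on OSKH 1 to 4, at 2.04, 2.66 and 3.37 on OSK 1 to 3, and at 2.64 on ESC. OSKH 1 was the lowest of all 8 arrays, and the other 3 OSKH arrays lay inside the OSK range. The mean difference was -0.39 (SE 0.55, 95% interval -1.69 to 0.92, limma adjusted p = 0.943) and became 0.077 without OSKH 1.

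Sox11, a SoxC factor of neural progenitors that is also on in the postimplantation epiblast, was at 0.68, 1.94, 1.93 and 2.06 on OSKH 1 to 4, at 1.07, 1.39 and 1.84 on OSK 1 to 3, and at 1.87 on ESC. OSKH 1 was again the lowest array, and OSKH 2 to 4 lay above all 3 OSK arrays. The difference was 0.21 (SE 0.37, 95% interval -0.67 to 1.1, limma adjusted p = 0.956), which was 0.54 without OSKH 1 and 0.031 without OSK 1. A second Sox11 probe was also lowest on OSKH 1 and gave a difference of 0.16. On that probe only OSKH 4 (0.61) lay above all 3 OSK arrays, while OSKH 2 (0.39) and OSKH 3 (0.48) lay below OSK 3 (0.60).

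The zinc finger genes Zic2 and Zic5 lie next to each other on chromosome 14. Their mean differences between the iPSC groups had opposite signs, and whether these differ was not tested. Zic2 was at 1.19, 1.76, 2.41 and 1.94 on OSKH 1 to 4, at 1.08, 0.82 and 2.19 on OSK 1 to 3, and at 1.87 on ESC. OSK 1 and OSK 2 were its lowest arrays, and the difference was 0.46 (SE 0.40, 95% interval -0.49 to 1.41, limma adjusted p = 0.9003). It was 0.19 without OSK 2 and 0.87 without OSK 3. Zic5 was at -1.14, -0.05, -0.18 and -0.45 on OSKH 1 to 4, at -0.40, -0.62 and -0.09 on OSK 1 to 3, and at -0.27 on ESC. OSKH 1 was its lowest array, and the difference was -0.08 (SE 0.28, 95% interval -0.74 to 0.57, limma adjusted p = 0.977), which was 0.14 without OSKH 1.

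Lef1, the nuclear partner of beta-catenin that carries Wnt signals to target genes, varied least of the 9 between the iPSC arrays (range 0.82). It was at 3.79, 4.27, 4.09 and 3.49 on OSKH 1 to 4, at 3.45, 3.61 and 4.02 on OSK 1 to 3, and at 4.10 on ESC. The groups differed by 0.22 (SE 0.22, 95% interval -0.31 to 0.74, limma adjusted p = 0.921), and a second Lef1 probe gave 0.15. It was 0.096 without OSK 1 and 0.38 without OSK 3. On OSKH 4, where Fgf5, Otx2 and Fst were highest, Lef1 was the second lowest of the 8 arrays and Pou3f1 likewise.

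Over the 9 genes, limma called 0 between OSKH and OSK at an adjusted p under 0.05, as it called 0% of all features. At an unadjusted p under 0.05 there were 2 members, Fst and Otx2, both higher, where 6.48% of all features passed, 3.19% higher and 3.28% lower. The mean was higher in OSKH for 6 members and lower for 3, as against 46.3% of all features higher, and the median difference was 0.22 against -0.013 for all features. The smallest adjusted p of any member was 0.733. In the iPSC arrays the members had a median range of 1.59, where that of all features was 0.57, and the range of each of the 9 exceeded the latter value.

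**Figure D2:**
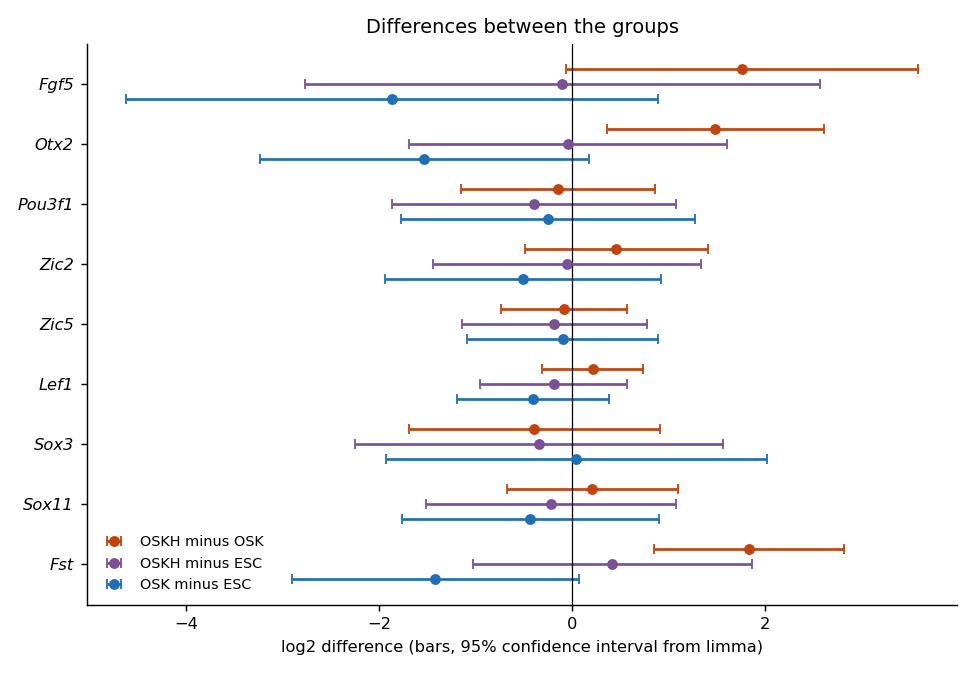
Differences between the groups for the 9 genes in log2 units, with points for the estimate and bars for the 95% interval of the limma fit; OSKH minus OSK in orange, OSKH minus ESC in purple and OSK minus ESC in blue. Fst (0.85 to 2.82) and Otx2 (0.36 to 2.62) have intervals for OSKH minus OSK that lie above 0, before any adjustment over features, and the ESC comparisons have the widest bars because ESC has 1 array.

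Against ESC, the OSKH means lay close for most genes and the OSK means were lower for Fgf5, Otx2 and Fst. Both comparisons rest on 1 ESC array and assume that ESC arrays vary like the iPSC arrays, and OSK minus ESC shares its OSK arrays with OSKH minus OSK. The OSK mean differed from ESC by -1.86 (SE 1.16) in Fgf5, -1.53 (SE 0.72) in Otx2 and -1.42 (SE 0.63) in Fst. The OSKH mean differed from ESC by -0.10 (SE 1.13), -0.04 (SE 0.70) and 0.42 (SE 0.61) in the same genes. OSK was below ESC in 8 of 9 members, with Sox3 at 0.05, and OSKH in 8 of 9, with Fst at 0.42. Most features were also below ESC, with 42.6% of all features above it in OSK and 40.0% in OSKH. The median difference was -0.43 for OSK and -0.18 for OSKH, where all features had -0.047 and -0.055. With limma 0 members and 0% of all features passed in either comparison, with 0 members at an unadjusted p under 0.05, where 6.03% of features had one for OSK (2.74% higher, 3.29% lower) and 4.37% for OSKH (1.69% higher, 2.68% lower). The smallest adjusted p of a member was 0.822 for OSK and 0.999 for OSKH. The ESC array was neither the lowest nor the highest of the 8 in any of the 9 members, a position it held in 73.4% of all features.

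For the order of the groups, ESC was highest, OSKH next and OSK lowest in Fgf5, Otx2, Zic2, Lef1 and Sox11. Fst ran OSKH, ESC, OSK. Pou3f1 and Zic5 ran ESC, OSK, OSKH, and Sox3 OSK, ESC, OSKH. In all 9 the ESC value lay inside the range of the OSKH arrays, so ESC and OSKH were not separated in any, and OSKH and OSK were separated in Fst alone.

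The iPSC arrays also differed from each other within the groups. The mean over the 9 genes relative to ESC was -1.11 on OSK 1, -1.0 on OSK 2 and -0.86 on OSKH 1, while OSK 3 was at -0.04, OSKH 2 at -0.04, OSKH 3 at 0.28 and OSKH 4 at 0.14. OSK 3 lay above both OSK 1 and OSK 2 in 9 of 9 members, which 46.1% of all features also showed. OSKH 1 lay below each of the other OSKH arrays in 7 of 9, against 33.6% of all features. OSKH 3 exceeded ESC in 8 of 9 members, OSKH 2 and OSKH 4 in 5 each, OSK 3 in 4, and OSKH 1, OSK 1 and OSK 2 in 1, 0 and 1. The share of all features above ESC on each array was not counted.

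The lowest array was not the same for every gene. OSKH 1 was the lowest of the 8 in Pou3f1, Zic5, Sox3 and Sox11, OSK 1 in Fgf5, Lef1 and Fst, and OSK 2 in Otx2 and Zic2. The second Lef1 probe was lowest on OSKH 4 (1.26), with OSK 1 at 1.31. These arrays were often low together. OSK 1 was second lowest in Otx2, Zic2, Sox3 and Sox11, and OSK 2 in Fgf5, Zic5 and Fst. Of the 18 core and naive pluripotency genes, 14 were at their highest of the 8 arrays on OSKH 1, among them the naive factors Tbx3 (3.95) and Esrrb (6.86), where the other 6 iPSC arrays had 0.57 to 2.36 and 4.64 to 5.76 and ESC had 2.04 and 5.97. Gbx2 of the same list was at its lowest there (0.54), and Nanog was at 2.20 against 2.28 on OSKH 4. Of the 23 tested genes of a wider formative and primed list, 12 were at their lowest on OSKH 1 and 3 at their highest. The share of all features highest or lowest of the 8 arrays on OSKH 1 was not counted, so these counts have no reference beside them. Esrrb and these counts were chosen after the values were seen, and the part that naive genes have in the low members of OSKH 1 was not tested.

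Correlations over the 8 arrays describe how the members went together. They have no test here, since the arrays share a slide and the grouping of the genes was made after the values were seen. Otx2 and Fgf5 went together most closely, with a Pearson r of 0.93 and a Spearman rho of 0.95, and r was 0.95 without OSK 1 and OSK 2, the 2 arrays farthest from the median of Fgf5. Fst correlated with Otx2 at r = 0.88 (rho 0.83) and with Fgf5 at 0.87 (rho 0.83), and these were 0.83 and 0.65 without OSK 1 and OSK 2. Zic5 correlated with Sox3 at 0.88 (rho 0.81), which was 0.74 without OSKH 1 and OSK 2, and with Pou3f1 at 0.85 (rho 0.95), which was 0.95 without OSKH 1 and OSKH 4. Fst had an r of -0.12 with Pou3f1, -0.03 with Sox3 and -0.01 with Zic5. Without the 2 farthest arrays these were 0.67, 0.58 and -0.17, so the values for Pou3f1 and Sox3 rest on those arrays. Zic2 lay between, with 0.85 to Fgf5 (rho 0.86), 0.85 to Otx2 (rho 0.81) and 0.77 to Sox11 (rho 0.60), which were 0.67, 0.53 and 0.80 without OSK 1 and OSK 2. Sox11 had an r of 0.77 to Fgf5 (rho 0.79, and 0.81 without OSK 1 and OSK 2) and 0.59 to Otx2 (rho 0.83, and 0.66 without them). Its r was 0.86 to Sox3 (rho 0.45, and 0.81 without OSKH 1 and OSK 3). To Zic5 it was 0.81 (rho 0.52, and 0.35 without OSKH 1 and OSK 2). Lef1 correlated most with Pou3f1, at 0.80 (rho 0.62, and 0.90 without OSKH 1 and OSKH 4).

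**Figure D3:**
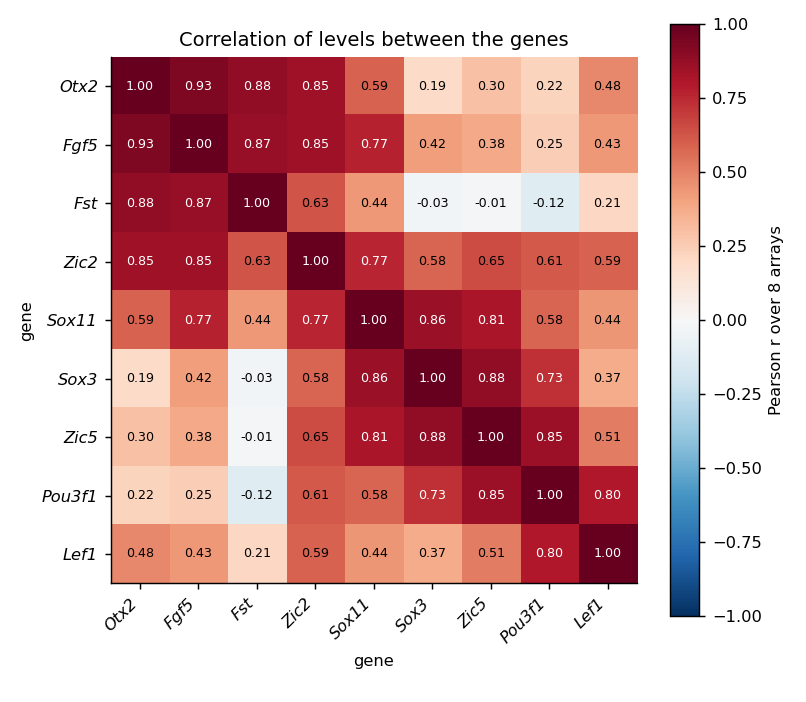
Pearson r over the 8 arrays between the levels of each pair of the 9 genes, with red for positive values. Otx2, Fgf5 and Fst have values of 0.87 to 0.93 with each other, and Sox3, Zic5 and Pou3f1 of 0.73 to 0.88. Fst has values from -0.12 to -0.01 with the latter. The other genes do not stand apart from these. Zic2 has 0.85 with Fgf5 and with Otx2, Sox11 has 0.86 with Sox3 and 0.81 with Zic5, and Lef1 has 0.80 with Pou3f1.

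No member was among the 3 genes most like another member, out of 13063 named genes well above background on all 8 arrays and ranked by Pearson r. The closest were Alx4, Prag1 and Flna to Fgf5 (r of 0.989, 0.982 and 0.981), Fam111a, Heph and Lypd6b to Otx2 (0.986, 0.974 and 0.973), and Aig1, Ddah2 and Bbx to Fst (0.989, 0.982 and 0.976). Heph, a ferroxidase, and Lypd6b differed between OSKH and OSK by 1.20 and 1.41, in the range of Otx2 itself. Closest to Sox3 were Klc2, Dzip1l and Rprm (0.991, 0.987 and 0.985), to Sox11 Cracd, Tmem132a and Myh10 (0.993, 0.992 and 0.990), and to Zic5 the imprinted gene Dlk1, Mthfsl and Zfp647 (0.991, 0.988 and 0.985). Closest to Pou3f1 were Tpst1, E430018J23Rik and Eif1ax (0.984, 0.981 and 0.980). Closest to Zic2 were Bahd1, Fbxo16 and Ubqln2 (0.987, 0.985 and 0.979), and to Lef1 Mtdh, Mtfp1 and Twistnb (0.974, 0.963 and 0.963). These r are the highest picked from 13063 genes over 8 arrays, and shared regulation was not tested. An r also does not show how far a gene moved. Flna ran from 5.43 to 5.90 over the arrays and Mtdh from 4.53 to 4.80.

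Of the 18 protein-coding neighbours of the 9 genes, 15 were tested, and their r with the member beside them ran from -0.53 to 0.93. The highest was that of Cfap299, next to Fgf5 on chromosome 5, which was named for this value after it was seen. Cfap299 was at -4.15, -4.31, -2.52 and -1.67 on OSKH 1 to 4, at -5.69, -4.41 and -3.35 on OSK 1 to 3, and at -3.27 on ESC, and it was well above background on 5 of the 8 arrays. It differed by 1.32 (SE 0.81, limma adjusted p = 0.846). Zic2 and Zic5 had an r of 0.65 (rho 0.55), which was 0.80 without OSK 1 and OSK 2.

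The wider list of formative and primed genes was split between the iPSC groups. Of its 25 genes 23 were tested, 11 higher and 12 lower in OSKH, with a median difference of -0.012 and 0 past the threshold (1 at an unadjusted p under 0.05). Without OSKH 4, 8 were higher and 15 lower, with a median of -0.053. The largest positive values were Car14 at 1.33 (SE 0.72), Krt18, a keratin of simple epithelia, at 0.90 (SE 0.55) and Fgf8, an FGF of the primitive streak, at 0.79 (SE 0.99). Without OSKH 4, Krt18 was at 0.44 and Fgf8 at 0.07. The largest negative values were Tcf15, a factor that primes cells for differentiation, at -0.65 (SE 0.27), and the DNA methyltransferase Dnmt3a at -0.41 (SE 0.30) with its cofactor Dnmt3l at -0.35 (SE 0.37).

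Among pathways that bear on the members, 0 genes passed in any. Of 16 FGF and ERK response genes, 7 were higher and 9 lower (median -0.049), with Dusp4, a phosphatase induced by ERK, at 0.76 (SE 0.32), Spry1, a feedback inhibitor of FGF receptors, at 0.43 (SE 0.14) and Myc at -0.56 (SE 0.16). Of 14 tested genes of Wnt and its TCF/LEF factors, 12 were higher (median 0.30), with T at 1.42 (SE 1.49), Sp5 at 1.39 (SE 1.49) and the Wnt feedback ligase Rnf43, measured on 2 of 3 OSK arrays, at 0.94 (SE 0.26). Without OSKH 4 the list had 9 higher and 5 lower (median 0.022), and T was at 0.0012 and Sp5 at -0.04. Lef1's relative Tcf7 was at -0.14 (SE 0.21).

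Of 16 tested genes of activin, Nodal and follistatin signalling, 11 were higher (median 0.059). Inhba, the subunit of activin A that follistatin binds, was at 0.97 (SE 0.59) and was measured on 1 of 3 OSK arrays, Bmp4 was at 1.20 (SE 0.68) and Gdf3 at -0.29 (SE 0.16). Without OSKH 4 the list had 8 higher and 8 lower (median -0.017), and Inhba was at 0.46. Of the 7 tested relatives of the members, 4 were higher and 3 lower (median 0.0034), with Zic1 at 0.18 (SE 0.28) and Sox1, a SoxB1 relative of Sox3, at -1.25 (SE 0.41).

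Core and naive pluripotency genes, listed for contrast, were higher in 16 of 18 (median 0.13), and in 16 without OSKH 4 (median 0.17). Dppa3 was at 0.64 (SE 0.31), Nanog at 0.54 (SE 0.21) and Gbx2 at -1.53 (SE 0.47). Of this list 14 genes were highest on OSKH 1. Without OSKH 1, Dppa3 was at 0.50, Nanog at 0.46 and Gbx2 at -1.29. Tbx3 then went from 0.48 to -0.16, Sox2 from 0.096 to -0.035 and Fgf4 from 0.023 to -0.068. The list was not counted again without OSKH 1. Primitive streak and mesendoderm genes were higher in 6 of 6 tested (median 1.69), and without OSKH 4 in 4 of 6 (median 0.20). Foxa2, measured on 2 of 3 OSK arrays, was at 3.08 (SE 1.64) and at 1.52 without OSKH 4, Gsc, measured on 1 of 3 OSK arrays, at 2.13 (SE 1.78) and 0.40, and Eomes at 1.95 (SE 0.99) and 1.04. Neural genes were lower in 9 of 10 (median -0.14, and -0.38 without OSKH 4), with Neurod1 at -1.24 (SE 0.34). Fibroblast and feeder genes were higher in 10 of 11 tested (median 0.70), and without OSKH 4 in 7 of 11 (median 0.093). Over 7 of their markers (Col1a1, Col1a2, Col3a1, Thy1, Postn, Pdgfrb and Twist2) the summed level was 2.80 to 4.20 in OSKH, 2.10 to 2.98 in OSK and 4.07 in ESC, all 7 being well above background on ESC and OSKH 4. Neural markers (Sox1, Pax6, Neurog2, Neurod1, Olig2 and Tubb3) summed to 2.94 to 3.40 in OSKH, 3.44 to 3.55 in OSK and 3.50 in ESC, with Tubb3 the strongest on each array (2.51 to 3.18). Neurog2, and Elf5 of the trophectoderm markers, stayed near background on all 8 arrays. The part of these other cell types in the differences of the 9 genes was not tested.

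**Figure D4:**
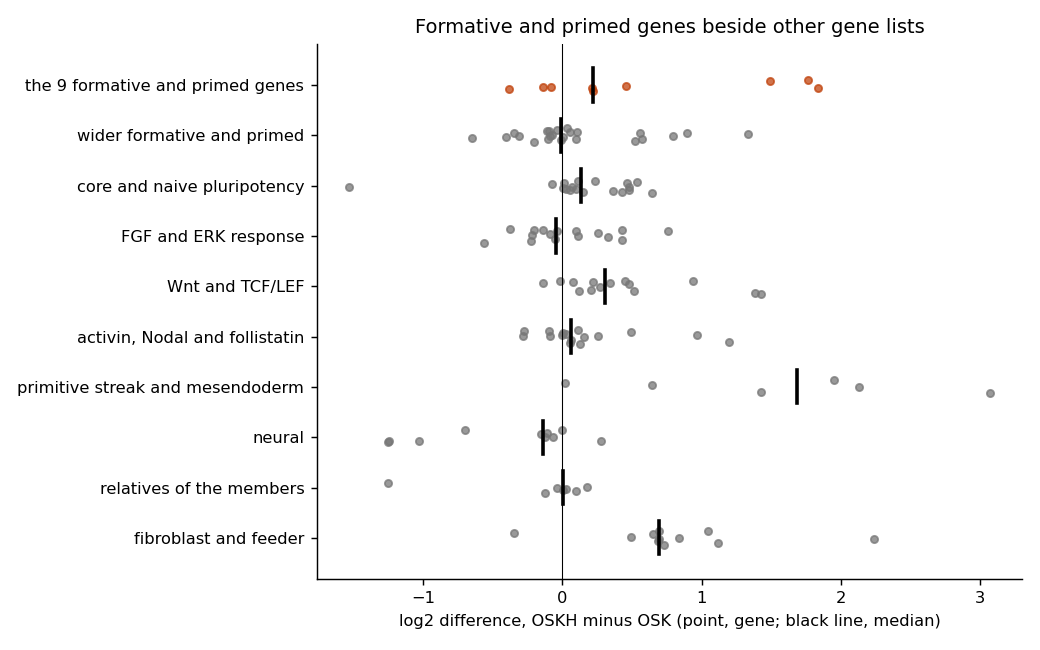
Difference between OSKH and OSK in log2 units for each tested gene of the 9 and of the other lists, 1 point per gene, with the median as a black line. The 9 genes have a median of 0.22 with Fst, Fgf5 and Otx2 at 1.84, 1.76 and 1.49, the wider formative and primed list a median of -0.012, and the mesendoderm list a median of 1.69, which was 0.20 without OSKH 4.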

How the data were processed

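Total RNA was labelled with Cy3 and hybridised to 1-colour Agilent mouse arrays, 1 per sample, per the labels. The deposited intensity of each spot is the processed signal of Agilent Feature Extraction 11.5.1.1, background-subtracted within the array and not scaled between arrays, per the file headers. The other deposited columns used were the median intensity of the spot and of its local background, and flags with values of 0 or 1. The value table that was also deposited is on a log2 scale: against the scanner signal each array differed by a single constant, within 0.01 for 100% of probes, so it is not centred per gene. The medians of its columns were -3.71 to -3.60, and its software is not given in the labels.

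Control spots (3671 per array) and outlier spots were left out, and spots were averaged per probe (55667 probes). Of these 27650 were named through RefSeq accessions (GRCm38.p6), and 28017 kept the identifier in the file. The array annotation refers to mm9. There were 0 saturated spots. Each array was scaled to its 75th percentile (424 to 501 before scaling). The filter kept probes marked well above background on 3 or more of the 8 arrays, and the probe with the highest mean stood for a gene. The 3 groups were fitted together in limma 3.58.1 under R 4.3.3 (5 residual and 1.85 prior degrees of freedom), and the test was tried on simulated data. The files hold no mean signal column, so the normexp alternative used the median signal. Array numbers 1 to 3 paired the iPSC groups: deviations from the group means correlated at 0.47, 0.26 and 0.45 between arrays of the same number, which also share a slide column per the file headers. The members and lists were chosen with earlier results of these data known. All 9 members are named. Of other lists, genes past the threshold or up to 3 with the largest difference in each direction could be named, and for likeness the 3 genes with the highest r.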

Additional observations from a re-analysis of the deposited data

Results flagged for a closer look

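On OSKH 1 the Sox3 level of 0.91 lay far below the other 3 OSKH arrays (2.63 to 2.85), with a gap that was 0.891 of the range of the group. The Sox11 level of 0.68 on the same array lay below 1.93 to 2.06, with a gap of 0.907 of the range. Both gaps exceed the 95% critical value of Dixon's test for 4 samples, 0.829. The second Sox11 probe had a gap of 0.773, which does not. Chance marks about 1 in 20 groups, and 11 probes were examined. The cause was not tested.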

How the results depend on the processing

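Of 396 member differences recomputed under the alternatives, 370 kept their direction and 26 reversed, and 0 passed an adjusted p of 0.05, the smallest being 0.163. Part of the 370 could not change. Leaving out an OSK array does not alter OSKH minus ESC, nor an OSKH array OSK minus ESC. The other filters on dim probes kept the same probe for each member, and the mean over probes alters only genes with more than 1 probe. The 370 is therefore not a measure of how stable the differences are. Fst ran from 1.57 to 2.64, Otx2 from 1.09 to 2.04 and Fgf5 from 1.21 to 2.93 for OSKH minus OSK in all of them. The fit with array number as a replicate block left out ESC and OSKH 4, which has no partner. Its differences are therefore the same as those without OSKH 4. Fst was at 1.57 (SE 0.19), Fgf5 at 1.37 (SE 0.24) and Otx2 at 1.32 (SE 0.30). The limma adjusted p were 0.381, 0.381 and 0.424, and Pou3f1 turned to 0.055. The block changed no call.

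With slide row as a block, limma called 47 features for OSKH minus OSK and 38 for OSK minus ESC, in place of 0. In that fit OSKH minus OSK is OSKH 4 less the OSK mean, so its calls rest on 1 OSKH array, whose mesendoderm markers stood apart. OSK minus ESC also runs through OSKH 4 there. In the same fit Lef1 turned to -0.20 for OSKH minus OSK, and Pou3f1, Lef1 and Sox3 to 0.53, 0.15 and -0.39 for OSK minus ESC. With no filter on dim probes, 11 features passed for OSKH minus ESC and 9 for OSK minus ESC. For OSKH minus ESC, normexp turned Zic2 to 0.010 and quantile normalization Otx2 to 0.057. When OSKH was reduced to arrays 2 and 3, an alternative chosen after seeing the data, Pou3f1 was at 0.48, Zic5 at 0.25 and Sox3 at 0.14. The list counts and medians without OSKH 4, and the values of list genes without OSKH 1, were also added after seeing the data. The cause of these changes was not tested.

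When single arrays were left out, OSKH minus OSK ran from -0.36 to 0.15 for Pou3f1, -0.22 to 0.14 for Zic5 and -0.71 to 0.077 for Sox3. OSKH minus ESC ran from -0.49 to 0.33 for Fgf5, -0.21 to 0.13 for Otx2, -0.24 to 0.17 for Zic2, -0.31 to 0.047 for Zic5, -0.52 to 0.12 for Sox3 and -0.35 to 0.11 for Sox11. OSK minus ESC ran from -0.29 to 0.37 for Sox3 and -0.24 to 0.030 for Zic5. The number of called features and members stayed 0 in each.

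The number of arrays, with 1 for ESC, limits all comparisons, and the signal of all 11 probes was above background on each array.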
